A study of Mus musculus with 91 samples.

Results

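Splenic regulatory T cells (Tregs) of mice were compared 168 h after an injection of FP, a fusion of mouse interleukin-2 (IL-2) with CD25, and 168 h after an injection of the PBS carrier. The comparison was chosen by the time and the injected molecule in the sample titles, and it holds 7 of the 91 samples of the series, 4 with FP and 3 with PBS. The FP mice received 20 µg of FP and the PBS mice the control buffer. All groups were RFP-FoxP3 reporter mice of the C57/BL6 strain, in which a red fluorescent protein marks Foxp3-expressing cells, and Tregs were sorted from the spleen. The age and the number of mice behind each library are not given in the labels, and the protocol text names a delay of 1.5 h for every sample, so the time of 168 h rests on the titles and treatment labels. Whether the libraries of a group came from separate mice is not given, so the p-values measure the spread between these libraries, which may be technical in part. A second set of libraries, 4 with FP and 3 with PBS at 72 h, served to ask whether the response differed from that at the earlier time.

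Tregs restrain immune responses and depend on IL-2, which they bind through a receptor made of the chains CD25 (Il2ra), CD122 (Il2rb) and the common gamma chain (Il2rg). The receptor signals through JAK kinases to the transcription factor STAT5, whose targets include Il2ra itself and the feedback inhibitors Cish and Socs2. A portion of Tregs, often called effector Tregs, carries surface receptors such as KLRG1 and the IL-33 receptor ST2 (Il1rl1) and can make IL-10 and granzyme B, while resting Tregs express Tcf7, Ccr7 and Bcl2.

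Ribosome-depleted total RNA was sequenced, and reads were counted per gene. The 4 FP libraries held 27749618, 43509391, 22583115 and 26539733 counted reads, and the 3 PBS libraries 30098172, 17223637 and 22869255. Levels are given as CPM, counts scaled by edgeR to a common library size, differences as log2 of FP over PBS, and a gene is called changed at an adjusted p below 0.01. The first FP library stood highest in the summed level of cytosolic ribosomal protein genes, at 60920, 49790, 27930 and 41580 CPM in the FP libraries, against 45730, 34220 and 26510 CPM in the PBS libraries. The groups overlapped in that sum. All 7 libraries carried the Y-linked Ddx3y, at 111 to 137 CPM with FP and 115 to 135 CPM with PBS, and Xist was at 2.44 CPM or less.

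At 168 h, 210 of 17411 genes differed between FP and PBS, which is 1.21% of the genes tested. Of these, 35 were higher with FP (0.201%) and 175 were lower (1.01%). The risen genes included the granule protease Gzmb, the receptors Klrg1, Il1rl1 and Ccr2, the cytokine Il10 and the chemokine Ccl5. Most of the lowered genes that could be placed in a list were genes of macrophages and other antigen-presenting cells, and a few were genes that T cells express, among them Lta and Myb. DESeq2 called 520 genes, among them all 210 of edgeR. The number called depended on single libraries: without PBS library 2 the risen genes numbered 12, without PBS library 1 there were 18 risen and 110 lowered genes, without FP library 2 there were 20 and 115, and without FP library 4 the risen genes numbered 20. Without FP library 1 there were 22 risen genes and without PBS library 3 there were 23.

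**Figure D1:**
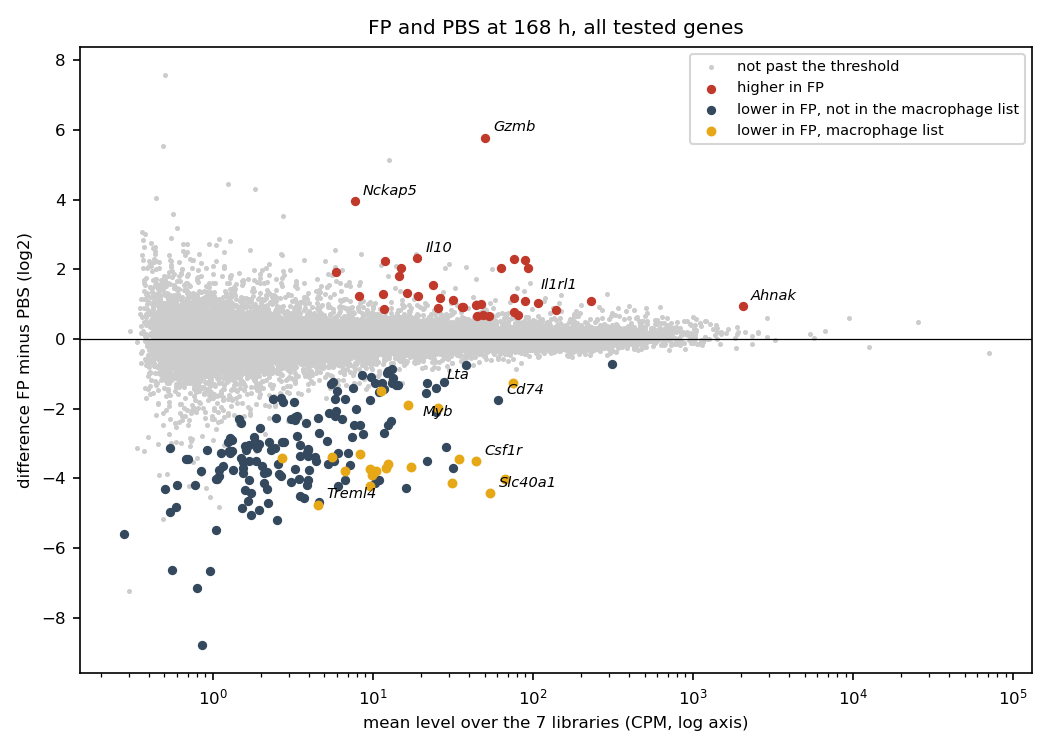
Difference FP minus PBS (log2, vertical axis) against the mean level over the 7 libraries (CPM, log axis) for all 17411 genes; each point is a gene. The 35 genes higher in FP are red, the lowered macrophage genes yellow and the other lowered genes dark blue; Gzmb stands at 5.78, and the macrophage genes Slc40a1 and Treml4 at -4.42 and -4.76.

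Effector genes of Tregs were the first group among the risen genes. Of 39 measured effector Treg genes, 4 rose (Gzmb, Klrg1, Il10 and Il1rl1), none fell and 35 did not pass the test, with a median difference of 0.28 against 0.00 over all genes. Among all genes tested, 0.201% rose and 1.01% fell. Gzmb encodes granzyme B, a protease that cytotoxic cells deliver into their targets, and lies at chr14:56258838-56262260 (GRCm38) on the minus strand. Its levels were 195, 56.9, 46.5 and 49.9 CPM in the FP libraries, against 3.00, 0.235 and 1.03 CPM in the PBS libraries. The lowest FP value was many times the highest PBS value, and FP library 1 stood far above the other 3. The log2 difference was 5.78 ± 0.74 (SE; adjusted p = 0.0014), with a 95% interval of 4.16 to 7.41. Without PBS library 2 or 3 its adjusted p was 0.011 in both cases, just above 0.01, and its difference 5.39 and 5.55. Gzmb shares sequence with other granzyme genes, so some reads may belong to a paralog. Gzmc, a neighbouring granzyme gene, had 4.14 ± 1.93 CPM with FP and 0.745 ± 0.529 CPM with PBS (adjusted p = 0.043), and Prf1, the gene of the pore-forming perforin, 8.47 ± 1.11 CPM with FP and 7.65 ± 0.708 CPM with PBS (adjusted p = 0.74).

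Il1rl1, the gene of the IL-33 receptor ST2, was the most evenly raised of the 4, with 183, 134, 113 and 124 CPM in the FP libraries, against 38.8, 30.9 and 31.8 CPM in the PBS libraries. The groups were separated by a wide gap, and the PBS values lay close together. It rose by 2.03 ± 0.17 (SE; adjusted p = 7.3e-05), and the call held with any library left out, at an adjusted p of 0.0013 or below. Klrg1, an inhibitory receptor of differentiated lymphocytes, had 179, 112, 65.7 and 105 CPM in the FP libraries, against 31.7, 15.7 and 22.97 CPM in the PBS libraries. Again FP library 1 was the highest, while the lowest FP value still exceeded every PBS value. Its difference was 2.29 ± 0.32 (SE; adjusted p = 0.0027), which became 2.08 (adjusted p = 0.022) without PBS library 2 and 2.27 (adjusted p = 0.017) without PBS library 3. Il10, the gene of an anti-inflammatory cytokine, had 36.8, 19.3, 30.1 and 29.1 CPM in the FP libraries, against 7.85, 1.88 and 7.19 CPM in the PBS libraries, and its log2 difference was 2.31 ± 0.38 (SE; adjusted p = 0.0077). The Il10 values did not overlap, but the call was lost in 5 of the 7 fits that left out a library (without FP 1, 2 or 4 and without PBS 1 or 3), where the adjusted p was 0.010 to 0.028, and when genes under 5 CPM were left out (0.011).

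**Figure D2:**
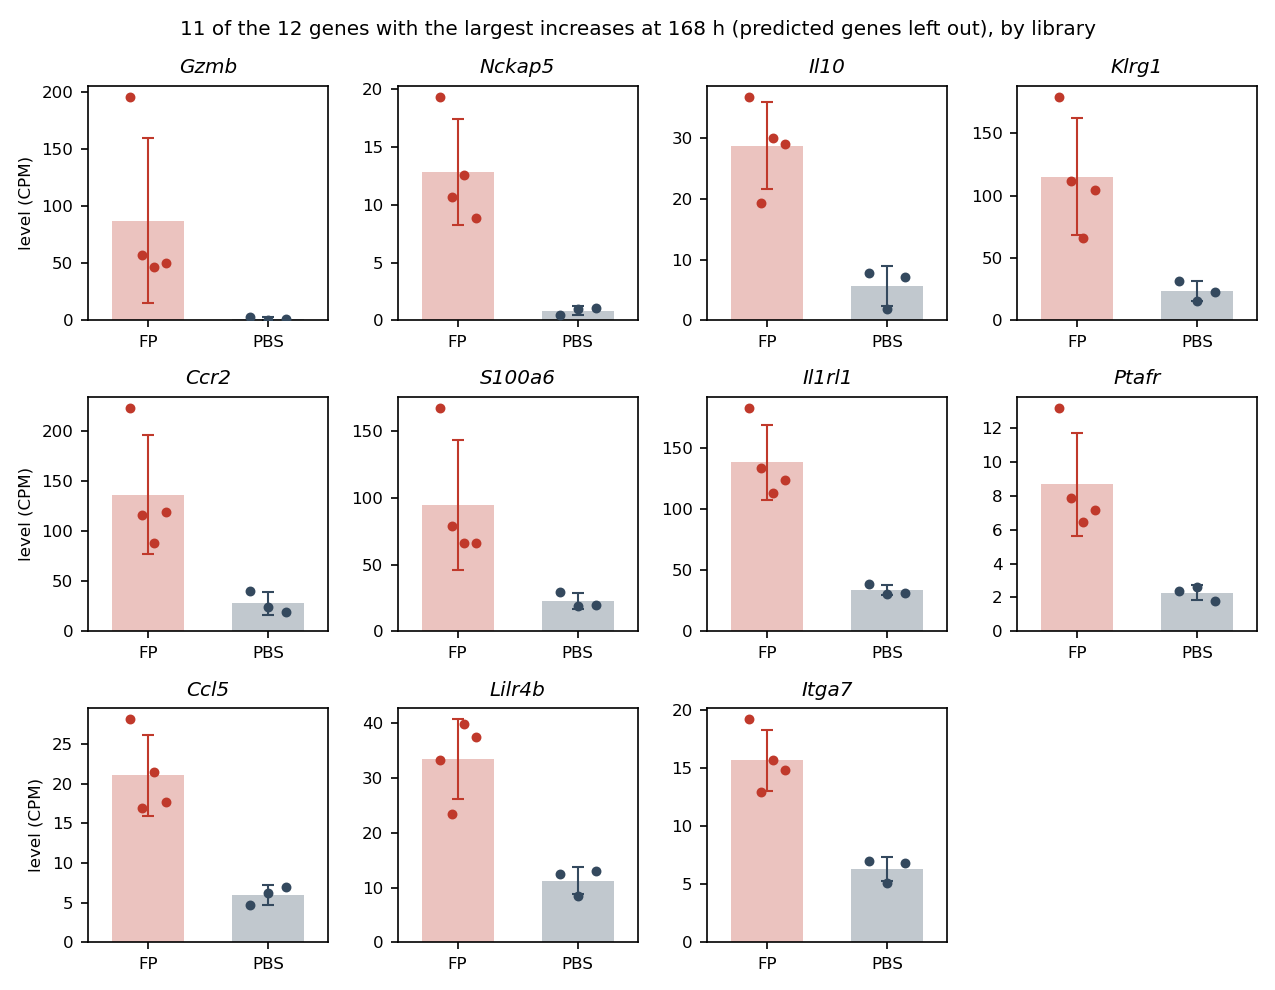
Level (CPM, vertical axis, starting at 0) of 11 of the 12 genes with the largest increases, predicted genes left out, in each FP library (red, left) and each PBS library (dark blue, right) at 168 h; points are libraries, bars means and whiskers SD. No FP point lies at or below a PBS point in any of the 11 panels, because genes with overlap were left out of the ranking. The first FP point of Gzmb, at 195 CPM, stands apart from the other 3.

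The promoter windows of Gzmb and Il1rl1 are shown because these are the effector genes with the largest and the most even increase. They are RefSeq windows (GRCm38.p6) from 250 bases before to 50 bases after the transcription start, printed along the gene's strand. Capitals mark the matches, on either strand, to the STAT palindrome TTCNNNGAA, the AP-1 motif TGANTCA and the PU.1 core GAGGAA. The Gzmb window (chr14:56262285-56262584, minus strand) and the Il1rl1 window (chr1:40429320-40429619, plus strand) read:
Gzmb: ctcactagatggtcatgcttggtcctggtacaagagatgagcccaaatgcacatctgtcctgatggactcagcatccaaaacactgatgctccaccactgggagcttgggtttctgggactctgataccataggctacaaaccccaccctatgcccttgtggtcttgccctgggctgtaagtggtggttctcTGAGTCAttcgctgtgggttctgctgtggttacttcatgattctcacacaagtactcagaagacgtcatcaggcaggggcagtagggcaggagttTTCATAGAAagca
Il1rl1: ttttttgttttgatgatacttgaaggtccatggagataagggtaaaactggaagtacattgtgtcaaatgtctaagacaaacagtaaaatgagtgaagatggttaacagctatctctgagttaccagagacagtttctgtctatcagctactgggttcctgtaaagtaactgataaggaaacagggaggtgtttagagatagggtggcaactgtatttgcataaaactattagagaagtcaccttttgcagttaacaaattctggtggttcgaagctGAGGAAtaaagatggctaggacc
The Gzmb window held the AP-1 match TGAGTCA, whose first base lay at position -58 from the RefSeq start, and the STAT match TTCATAGAA at position 37. That start lies upstream of the start of the Gzmb coordinates given above, so both matches lie upstream of the gene as annotated there. Il1rl1 has 2 windows in the table, of which the one nearest its annotated gene start is printed; that window held no match to either motif and 1 to the PU.1 core, at position 27. Of the 35 risen genes, 22 had RefSeq windows, 27 in all, and 3 of the 27 windows (11.1%) held the STAT palindrome, 2 (7.41%) the AP-1 motif and 7 (25.9%) the PU.1 core. Over the 13691 windows of all tested genes the shares were 7.02%, 5.17% and 27.1%. Klrg1 and Il10 had no entry in the table used. A match describes the letters in the window and shows no binding.

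Chemokine receptor and homing genes guide lymphocytes into tissues. Of 29 measured members, 2 rose, Ccr2 among them, 1 fell (Ccr6) and 26 did not pass. Over all genes tested, 0.201% rose and 1.01% fell. In this list 23 of 29 differences were positive, with a median of 0.42 against 0.00 over all genes. Ccr2, the receptor for the chemokine CCL2, had 223, 116, 88.3 and 119 CPM in the FP libraries, against 40.8, 24.1 and 19.4 CPM in the PBS libraries. The groups did not overlap, and the difference was 2.27 ± 0.33 (SE; adjusted p = 0.0036). Ccr2 lost its call without FP library 4 (adjusted p = 0.011), PBS library 2 (0.036) or PBS library 3 (0.018). It shares sequence with other chemokine receptor genes, so some reads may belong to a paralog. The integrin genes Itga4 and Itga2 had 1379 ± 50.1 CPM with FP and 964 ± 125 CPM with PBS (adjusted p = 0.034) and 19.7 ± 5.14 CPM with FP and 9.07 ± 1.93 CPM with PBS (adjusted p = 0.02), short of the threshold.

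Ccl5, the gene of a chemokine made by T cells and other leukocytes, had 28.1, 16.9, 21.5 and 17.8 CPM in the FP libraries, against 4.66, 6.28 and 7.02 CPM in the PBS libraries. All FP values were more than 2-fold above all PBS values. Its difference was 1.82 ± 0.22 (SE; adjusted p = 0.00095), called with any library left out. Ccl5 and Ccr2 also stand in the lists of genes typical of other cells. Ccl5 is 1 of 10 measured markers of CD8 T cells, natural killer cells and innate lymphoid cells, of which it alone rose and none fell. Among all genes tested, 0.201% rose. Of the 10 markers, 5 had a positive difference, and the median was -0.09. That list's summed level, Ccl5 included, was 61.7 to 88.4 CPM with FP and 38.4 to 49.2 CPM with PBS. Of its defining genes, Cd8a had 2.36 ± 0.465 CPM with FP and 3.22 ± 0.449 CPM with PBS, Klrb1c had 1.71 ± 0.400 CPM with FP and 1.94 ± 1.04 CPM with PBS, and Ncr1 and Klrd1 were not among the genes tested at 168 h. Ccr2 is 1 of 17 measured markers of monocytes, neutrophils and dendritic cells. Of these 7 fell, beside 1.01% of all genes tested, and only 4 had a positive difference, with a median of -1.06. The sums there were 209 to 365 CPM with FP and 180 to 230 CPM with PBS. They include Ccr2 itself, at 88.3 to 223 CPM with FP and 19.4 to 40.8 CPM with PBS.

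The S100, annexin, galectin and cytoskeleton genes, many of which are raised in activated or memory lymphocytes, lay above PBS nearly throughout: 24 of 25 measured members had a positive difference and the list's median was 0.81. Over all 17411 genes tested, 8652 had a positive difference, and lists of ribosomal proteins and oxidative phosphorylation were also mostly positive. Only 3 members of the list passed the test, S100a6, S100a11 and Ahnak, where 0.201% of all genes tested rose. S100a6, a calcium-binding protein, had 167, 78.7, 65.9 and 66.3 CPM in the FP libraries, against 29.4, 19.3 and 19.5 CPM in the PBS libraries, with FP library 1 well above the rest. It rose by 2.05 ± 0.33 (SE; adjusted p = 0.0067). Ahnak, a very large scaffold protein, had 3134, 2338, 2581 and 2300 CPM in the FP libraries, against 1328, 1085 and 1592 CPM in the PBS libraries, and rose by 0.96 ± 0.16 (SE; adjusted p = 0.0077). S100a11, of the same calcium-binding family, had 46.2 ± 8.16 CPM with FP and 24.2 ± 3.27 CPM with PBS (SD, n = 4 and 3) and rose by 0.93 ± 0.15 (SE; adjusted p = 0.0071). Each of the 3 calls was lost in 4 to 6 of the 7 fits without 1 library: S100a6 without FP 2 or without any one PBS library (adjusted p up to 0.056), S100a11 without FP 2, FP 4 or any one PBS library (up to 0.044) and Ahnak without any one FP library, PBS 1 or PBS 2 (up to 0.046). Ahnak also lost it when genes under 5 CPM were left out (0.015). Members short of the threshold, named after their values were seen, were S100a4 (2.14, adjusted p = 0.027), Lgals1, the gene of galectin-1 (1.598, 0.047) and Anxa2 (1.47, 0.028). The summed level of the list was 11120 CPM in FP library 1 and 7749 to 8743 CPM in the other FP libraries, against 5587 to 6055 CPM with PBS. The part that the high ribosomal protein share of FP library 1 has in its values was not tested.

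Nckap5, Ptafr, Lilr4b and Itga7 were also among the 12 largest increases. The ranking took called genes without overlap between groups that averaged 5 CPM or more in the FP libraries, predicted genes left out. The predicted genes Gm12963 and Gm6637, left out of that ranking, had differences of 2.234 and 1.32. Nckap5, which encodes a NCK-associated protein, had 19.3, 10.7, 12.6 and 8.88 CPM in the FP libraries, against 0.433, 0.997 and 1.12 CPM in the PBS libraries, so that it was nearly absent with PBS. Its difference was 3.96 ± 0.38 (SE; adjusted p = 0.00019) and was called with any library left out. Ptafr, the receptor for platelet-activating factor, had 8.65 ± 3.06 CPM with FP and 2.28 ± 0.422 CPM with PBS and a difference of 1.93 ± 0.29 (SE; adjusted p = 0.0045). Lilr4b, a leukocyte immunoglobulin-like receptor with a near-identical neighbour, had 33.5 ± 7.23 CPM with FP and 11.3 ± 2.42 CPM with PBS and a difference of 1.56 ± 0.21 (SE; adjusted p = 0.0018). Itga7, a laminin-binding integrin chain, had 15.7 ± 2.63 CPM with FP and 6.32 ± 1.05 CPM with PBS and a difference of 1.30 ± 0.18 (SE; adjusted p = 0.0029). Ptafr lost its call in 5 fits without 1 library (FP 2, FP 4 or any one PBS library, adjusted p up to 0.024), Itga7 in 3 (FP 4, PBS 1 or PBS 2, up to 0.014) and Lilr4b in 2 (PBS 1 or PBS 2, up to 0.012). Fosl2, an AP-1 subunit, was the 1 gene of 26 immediate early and handling stress genes that rose, with 41.3 ± 9.23 CPM with FP and 18.8 ± 3.46 CPM with PBS and a difference of 1.13 ± 0.19 (SE; adjusted p = 0.0078), lost without FP 1, FP 4, PBS 1 or PBS 2 (adjusted p up to 0.0497), with scaling by library totals (0.014) and when genes under 5 CPM were left out (0.014). Fos and Jun, members of the same family, differed by 0.65 (adjusted p = 0.11) and -0.05 (adjusted p = 0.89). Among all genes tested 0.201% rose, beside the 1 of 26 in the immediate early list.

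The 20 further risen genes, named after their values were seen, included receptors for cytokines and other signals. Il9r, a chain of the IL-9 receptor, had 38.8, 33.7, 31.3 and 34.1 CPM in the FP libraries, against 18.9, 12.8 and 13.7 CPM in the PBS libraries, and rose by 1.18 ± 0.15 (SE; adjusted p = 0.0015). Il10ra, a chain of the IL-10 receptor, had 173 ± 18.4 CPM with FP and 97.4 ± 14.2 CPM with PBS and a difference of 0.83, and Il18rap, a chain of the IL-18 receptor, 45.6 ± 6.05 CPM with FP and 24.2 ± 3.89 CPM with PBS and 0.91. The adenosine receptor gene Adora2a rose by 0.69 ± 0.10 (SE; adjusted p = 0.0027) and the inhibitory receptor gene Cd200r1 by 0.97 ± 0.16 (SE; adjusted p = 0.0077). Camk2b, a calcium-dependent kinase subunit, had 64.9, 56.9, 60.6 and 60.9 CPM in the FP libraries, against 29.4, 33.7 and 27.9 CPM in the PBS libraries, with narrow ranges in both groups. Runx3, a transcription factor of T cells, rose by 0.67 ± 0.11 (SE; adjusted p = 0.0077) and Axin2, a feedback inhibitor of Wnt signalling, by 0.68 ± 0.11 (SE; adjusted p = 0.0058). Neb, Cdc25b, Myo1f, Cobll1, Hip1, Acsbg1 and Lpcat4 rose by between 0.66 (Lpcat4) and 1.24 (Cobll1), and 4 of the 20 were predicted genes.

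None of 21 measured genes of Treg identity passed the test at this time, and their median was 0.11. Foxp3, the lineage-defining transcription factor, had 502, 502, 511 and 490.3 CPM in the FP libraries, against 451, 513 and 480.1 CPM in the PBS libraries. The ranges overlapped, and the difference was 0.06 with a 95% interval of -0.13 to 0.25. Foxp3 overlaps Ccdc22 and Ppp1r3f on the other strand. Ikzf2, the gene of Helios, differed by 0.27 (0.00 to 0.54), Ctla4 by 0.30 (-0.03 to 0.63) and Lrrc32, the gene of the TGF-beta anchoring protein GARP, by -0.04 (-0.36 to 0.28).

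Il2ra had 675, 632, 517 and 524 CPM in the FP libraries, against 596, 631 and 599 CPM in the PBS libraries. These ranges overlapped fully, with a difference of -0.05 (95% interval -0.30 to 0.20). Il2rb differed by 0.30 (0.03 to 0.58, adjusted p = 0.29). The STAT5 target Cish had 161, 157, 139.6 and 133 CPM in the FP libraries, against 159, 164 and 181 CPM in the PBS libraries and a difference of -0.19 (-0.40 to 0.02). Socs2, another such target, had 97.5, 56.7, 43.8 and 48.8 CPM in the FP libraries, against 35.9, 31.2 and 34.7 CPM in the PBS libraries. All 4 FP values of Socs2 exceeded the PBS values, but its difference of 0.86 did not pass edgeR's test (adjusted p = 0.11), while DESeq2 gave 0.0096. Of 32 genes in the list of the IL-2 receptor, JAK-STAT5 signalling and feedback, none rose, 3 fell (Myb, Lta and Dusp6) and 29 did not pass, with a median of -0.14. The share of all genes tested that fell was 1.01%.

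Cell cycle genes lay close to the PBS level in their medians. None of 35 DNA replication genes, 31 mitosis genes and 46 replication-dependent histone genes passed the test, with medians of -0.06, 0.12 and -0.01. The summed level of the mitosis genes was higher in every FP library, at 225 to 347 CPM against 192 to 211 CPM with PBS. The sums overlapped for DNA replication genes (763 to 963 CPM with FP, 728 to 808 CPM with PBS) and histone genes (706 to 1494 and 699 to 968 CPM). Mki67, a gene of proliferating cells, had 109, 58.7, 56.6 and 57.1 CPM in the FP libraries, against 46.0, 32.1 and 36.1 CPM in the PBS libraries. FP library 1 was again the highest, and the other 3 FP values lay within a narrow range above the PBS values. Its difference of 0.88 had an adjusted p of 0.095 with edgeR and 0.0056 with DESeq2. Birc5, the gene of survivin, had 1.77, 0.525, 1.08 and 0.966 CPM in the FP libraries, against 2.063, 1.47 and 0.868 CPM in the PBS libraries, with overlapping groups. Of the resting and central T cell genes, 0 of 30 passed, and the differences of Tcf7, Ccr7, Il7r and Bcl2 were -0.16, -0.34, 0.24 and -0.41. Over all genes, 2582 had an unadjusted p below 0.05 with edgeR, and those 4 genes had adjusted p-values of 0.15 to 0.5.

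Lists of housekeeping processes held no called gene either: ribosome biogenesis (38 genes, median -0.04), ribosomal proteins (66 genes, 0.38), oxidative phosphorylation (40 genes, 0.24), glycolysis (20 genes, 0.23), cholesterol synthesis (22 genes, -0.05), T cell receptor signalling (32 genes, 0.12), the BCL2 family (17 genes, -0.02) and chromatin regulators (32 genes, 0.00). Positive differences were found in 60 of the 66 ribosomal protein genes, 38 of the 40 oxidative phosphorylation genes and 15 of the 38 ribosome biogenesis genes. Over all 17411 genes tested, 8652 had one. Of 38 interferon-stimulated genes 1 fell, beside 1.01% of all genes, and the median was -0.14.

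**Figure D3:**
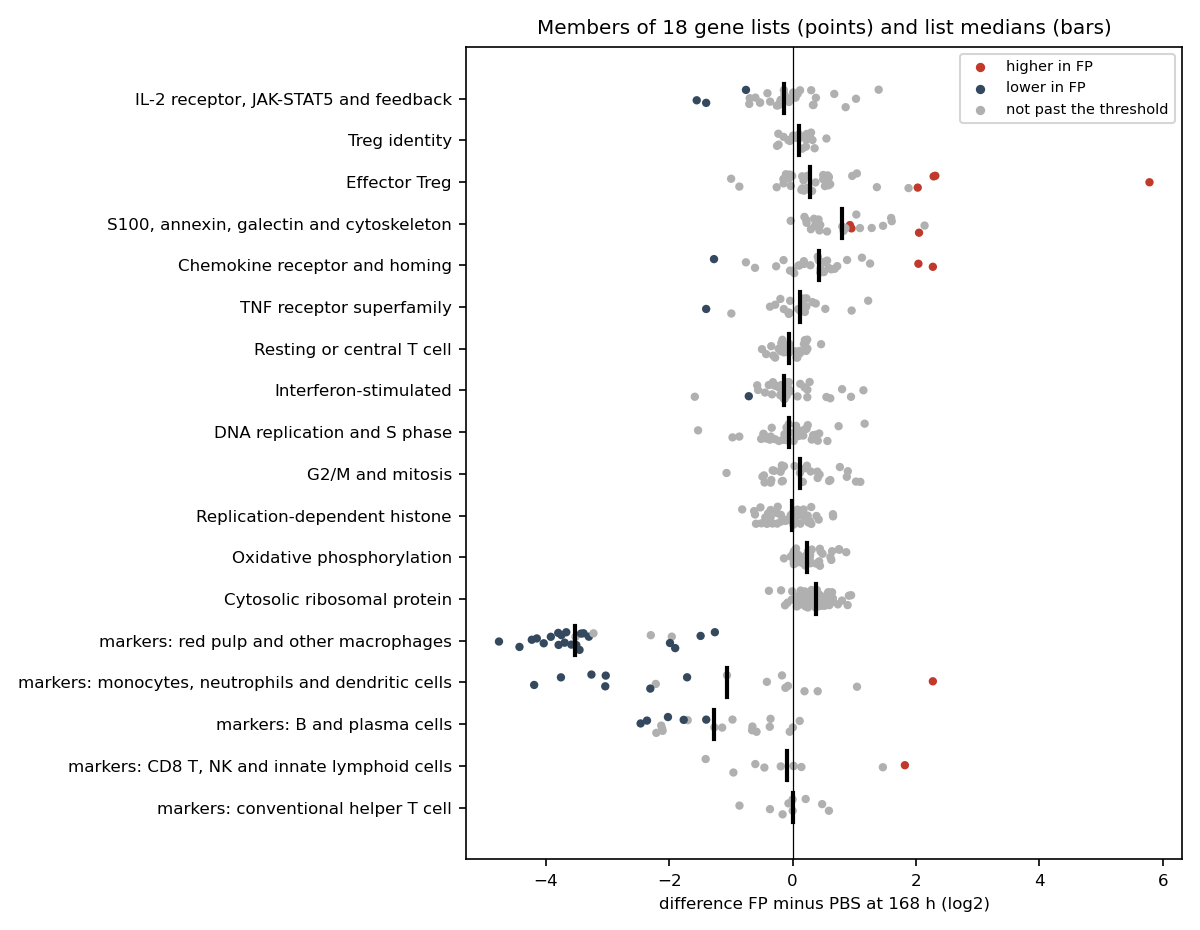
Difference FP minus PBS at 168 h (log2, horizontal axis) of each measured member of 18 gene lists (points) with the list's median (black bars); red points rose, dark blue points fell and grey points did not pass. The macrophage markers lie furthest to the left with a median of -3.52, the S100 list has a median of 0.81, and the cell cycle lists centre near 0.

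Macrophage genes were the largest named group among the lowered genes. Red pulp macrophages of the spleen clear old red cells and recycle their iron. Of 25 measured markers of red pulp and other macrophages, 21 were lower with FP, 4 did not pass and none was higher, with a median difference of -3.52 against 0.00 over all genes. The share of all genes tested that fell was 1.01%. Slc40a1, the iron exporter ferroportin, had 2.72, 4.22, 8.49 and 6.99 CPM in the FP libraries, against 129, 112 and 117 CPM in the PBS libraries. Spic, a transcription factor of red pulp macrophages, had 0.630, 0.668, 1.57 and 1.71 CPM in the FP libraries, against 27.3, 19.6 and 16.1 CPM in the PBS libraries. In both genes every FP value lay far below every PBS value, and the differences were -4.42 ± 0.29 (SE; adjusted p = 2.5e-05) and -4.22 ± 0.34 (SE; adjusted p = 6.8e-05). Hmox1, which breaks down haem, fell by -3.45 ± 0.20 (SE; adjusted p = 1.9e-05), the growth factor receptor gene Csf1r by -3.50 ± 0.25 (SE; adjusted p = 4.5e-05) and the complement gene C1qa by -3.69 ± 0.23 (SE; adjusted p = 2.5e-05). Csf1r overlaps Hmgxb3 on the other strand, and strand use in counting is not given in the sources used here.

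The 12 largest decreases included several macrophage genes. They were ranked over called genes without overlap between groups that averaged 5 CPM or more in the PBS libraries, predicted and RIKEN genes left out. The RIKEN gene F630028O10Rik, left out of that ranking, differed by -5.20. The 12 were Treml4, Paqr9, Slc45a3, Ptprm, Slc40a1, the integrin chain Itgad, Spic, the adhesion molecule Cadm1, the protease inhibitor Slpi, the mannose receptor Mrc1, Adgre4 (a relative of the macrophage receptor F4/80) and the inhibitory receptor Pilra, with differences of -4.76 to -4.10. In 9 of the 12 genes every FP library was under 2 CPM; the exceptions were Slc40a1, Itgad and Mrc1, at up to 8.49, 3.23 and 6.09 CPM. All 12 were called with any library left out.

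The summed level of the macrophage list was 97.1, 102, 170 and 130 CPM in the FP libraries, against 1068, 936 and 816 CPM in the PBS libraries. Every FP sum was well under every PBS sum. Of the 25 markers, all but Marco were above 0 in each of the 7 libraries. In bulk samples such as these, fewer macrophages or fragments of them in the sort and less RNA per cell cannot be told apart.

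Genes of antigen presentation and Fc receptors were lower as well. H2-Ab1, H2-Aa, H2-Eb1 and Cd74, which encode MHC class II chains and their chaperone, are carried by B cells, dendritic cells and macrophages. H2-Ab1 had 2.44, 3.15, 3.02 and 2.75 CPM in the FP libraries, against 16.4, 15.5 and 15.2 CPM in the PBS libraries, and Cd74 had 27.6, 28.1, 38.1 and 26.4 CPM in the FP libraries, against 89.6, 104 and 112 CPM in the PBS libraries. The groups were wide apart in both, at -2.46 ± 0.16 (SE; adjusted p = 2.5e-05) and -1.76 ± 0.14 (SE; adjusted p = 5.7e-05). Of 21 measured B cell and plasma cell markers 5 fell, these 4 and Bank1, where 1.01% of all genes tested fell. Only 2 of the 21 had a positive difference, and the median was -1.27. The B cell gene Cd79a had 5.78 ± 0.352 CPM with FP and 7.38 ± 0.618 CPM with PBS without passing. Of the 17 monocyte, neutrophil and dendritic cell markers, the 7 that fell included the Fc receptor genes Fcer1g (-3.03), Fcgr3 (-3.26) and Fcgr4 (-3.03) and the dendritic cell gene Clec9a (-4.19). The neutrophil genes S100a8, S100a9 and Mpo were not among the genes tested. Fcgr4 lost its call without FP library 2 (adjusted p = 0.011) or PBS library 1 (0.015), and Clec9a with the replicate numbers as a block (0.026). Stab2, a scavenger receptor of sinusoidal endothelium, was the 1 of 6 stromal and endothelial markers that fell (-2.20). No erythroid or platelet marker (13 measured, median -0.24) and no helper T cell marker (9 measured, median 0.00) passed.

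In all, 34 of the 175 lowered genes stood in a list of markers of other cell types, 5 stood in another list and 136 in none. The 5 included Lta, Myb, Dusp6 and Ccr6, which T cells express. How many of all tested genes stand in these lists was not counted, so the 34 and the 5 have no background beside them. Lta encodes lymphotoxin alpha, a cytokine of the TNF family, at chr17:35203165-35205351 (GRCm38, minus strand). It had 14.9, 14.6, 14.4 and 14.6 CPM in the FP libraries, against 36.4, 41.2 and 38.3 CPM in the PBS libraries. The FP values were almost equal and all far below the lowest PBS value, with a difference of -1.40 ± 0.10 (SE; adjusted p = 4.5e-05) and a 95% interval of -1.63 to -1.17. Myb, a transcription factor of progenitors and activated lymphocytes at chr10:21124935-21160984 (minus strand), had 11.8, 9.95, 14.2 and 11.6 CPM in the FP libraries, against 33.5, 39.3 and 31.6 CPM in the PBS libraries. The groups were again clearly apart, at -1.55 ± 0.14 (SE; adjusted p = 0.00014). Both calls held with any library left out, at an adjusted p of 0.0016 or below.

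The promoter windows of Lta (chr17:35205302-35205601, minus strand) and Myb (chr10:21160935-21161234, minus strand) are given because these genes changed sign over the time course described further on. They are printed in the same way, with the same 3 motifs in capitals:
Lta: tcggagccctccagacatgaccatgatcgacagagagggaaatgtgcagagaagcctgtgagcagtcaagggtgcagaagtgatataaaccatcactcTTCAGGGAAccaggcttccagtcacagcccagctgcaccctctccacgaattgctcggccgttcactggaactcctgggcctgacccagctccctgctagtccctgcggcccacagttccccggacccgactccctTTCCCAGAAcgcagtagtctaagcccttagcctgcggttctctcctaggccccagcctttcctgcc
Myb: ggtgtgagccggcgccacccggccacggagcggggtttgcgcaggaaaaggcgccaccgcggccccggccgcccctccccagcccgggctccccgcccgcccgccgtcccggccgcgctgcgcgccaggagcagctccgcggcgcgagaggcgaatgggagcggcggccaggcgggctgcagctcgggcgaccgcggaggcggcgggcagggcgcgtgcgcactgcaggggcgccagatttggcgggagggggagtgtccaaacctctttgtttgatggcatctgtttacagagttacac
The Lta window held 2 matches to the STAT palindrome, TTCAGGGAA at position -152 and TTCCCAGAA at position -16. The Myb window held no match to any of the 3 motifs. For 131 of the 175 lowered genes 175 windows were used. Of these, 15 (8.57%) held the STAT palindrome, 15 (8.57%) the AP-1 motif and 66 (37.7%) the PU.1 core. The shares over all windows used were 7.02%, 5.17% and 27.1%. PU.1 is a transcription factor of macrophages and B cells.

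Dusp6, a phosphatase that limits ERK signalling, had 30.3, 28.9, 28.4 and 30.3 CPM in the FP libraries, against 45.4, 54.2 and 49.7 CPM in the PBS libraries, and fell by -0.75 ± 0.10 (SE; adjusted p = 0.0018). Ccr6, the receptor for the chemokine CCL20, had 14.7, 13.2, 14.2 and 12.4 CPM in the FP libraries, against 29.3, 25.9 and 43.4 CPM in the PBS libraries, and fell by -1.27 ± 0.17 (SE; adjusted p = 0.002). Neither gene overlapped between groups. Dusp6 lost its call without FP library 2 (adjusted p = 0.012) and Ccr6 without FP library 2 or 4 (0.012 each). Myb overlaps a predicted gene on the other strand.

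At 72 h, the macrophage sum was 131, 230, 61.3 and 116 CPM in the FP libraries, against 1177, 2907 and 2011 CPM in the PBS libraries. Lta had 36.9, 43.3, 26.2 and 29.2 CPM with FP, against 34.8, 32.4 and 28.6 CPM with PBS at 72 h, and its groups overlapped. Myb had 113, 107, 86.1 and 66.8 CPM with FP at 72 h, against 38.0, 42.0 and 28.3 CPM with PBS, higher with FP in every library. For Lta, Myb, Dusp6 and Ccr6 the part of other cells in the result at 168 h was not tested.

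**Figure D4:**
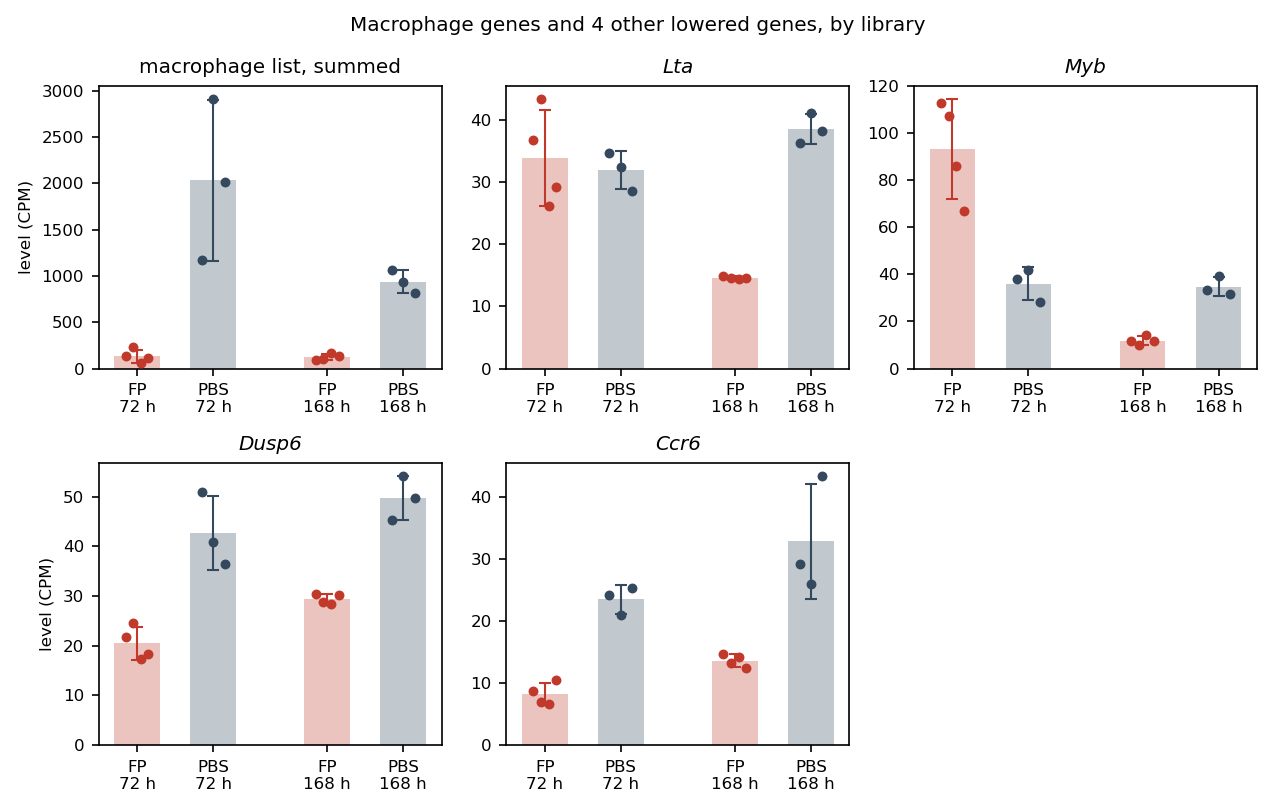
Level (CPM, vertical axes starting at 0) of the summed macrophage list and of Lta, Myb, Dusp6 and Ccr6 in each FP (red) and PBS (dark blue) library at 72 h and 168 h; points are libraries, bars means and whiskers SD. The macrophage sum is low with FP at both times, while Lta overlaps at 72 h and is 14.4 to 14.9 CPM with FP at 168 h, below all PBS libraries.

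Whether the response to FP at 168 h differed from that at 72 h was tested as the difference between the 2 log2 effects, each taken against PBS of its own time. Of 17214 genes in both tables, 1071 (6.22%) differed, 270 with a higher effect at 168 h (1.57%) and 801 with a lower one (4.65%). Most of the proliferation response fell in the second group: 35 of 35 DNA replication genes, 30 of 30 mitosis genes and 45 of 46 histone genes had a lower effect at 168 h. The effect on Mki67 was 4.66 at 72 h and 0.88 at 168 h (difference -3.75, adjusted p = 5.5e-06), and those on Birc5 differed by -6.004 (adjusted p = 1.9e-06). The 6 largest falls were in 5 histone genes (Hist1h2af, Hist1h3c, Hist1h2ah, Hist1h2ab and Hist1h3g) and in Hmmr, which binds hyaluronan and the spindle, at -7.13 to -6.66. Histone genes share sequence, so single members are uncertain. Of the interferon-stimulated genes, 29 of 38 also had a lower effect at 168 h.

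In the list of the IL-2 receptor and its targets, 12 of 32 genes had a lower effect at 168 h and none a higher one. Il2ra differed between the times by -1.75, Il2rb by -0.99, Cish by -1.30, Socs2 by -1.66, Lif, the gene of leukaemia inhibitory factor, by -3.92 and Enah, an actin regulator, by -4.18. Icos and Lrrc32 also had lower effects, by -1.04 and -1.15. Lif had 3.90, 3.87, 5.55 and 4.76 CPM in the FP libraries, against 5.32, 9.38 and 7.39 CPM in the PBS libraries at 168 h (adjusted p = 0.19), and Enah 1.69, 1.74, 0.497 and 0.929 CPM in the FP libraries, against 0.532, 0.645 and 1.12 CPM in the PBS libraries (adjusted p = 0.59), so that neither passed at that time. The resting T cell genes Il7r and Tcf7, with log2 differences of -1.14 and -0.84 at 72 h, had higher effects at 168 h, by 1.41 and 0.70.

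Among the 35 genes risen at 168 h, 34 could be compared with 72 h. For 29 the difference between the times did not pass, for 3 (Ccl5, Ptafr and the predicted gene Gm5541) the effect was higher at 168 h and for 2, Neb among them, lower. Ccl5 had been lower with FP at 72 h (-1.04), and the effects differed by 2.89 (adjusted p = 2.7e-05). Ptafr had differed by 0.14 at 72 h. The effects on Klrg1, Il1rl1, Il10 and Gzmb differed between the times by 0.80 (95% interval -0.21 to 1.81), 0.10 (-0.50 to 0.70), 1.12 (-0.02 to 2.25) and -2.20 (-4.07 to -0.34), none past the threshold (adjusted p = 0.27, 0.85, 0.18 and 0.11). At 72 h, 23 of the 34 had been higher with FP and 1 lower. The share of all tested genes called at 72 h was not counted, so this number has no background beside it.

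Of the 175 lowered genes, 169 were also lower with FP at 72 h, again with no share of all genes beside it. Another 2, Myb and the interferon-inducible GTPase gene Gbp10, were higher. The effect had a lower value at 168 h for 4 of the 175, including Myb (-2.89), Gbp10 (-1.90) and Lta (-1.46). It had a higher value for another 4 (Kcna2, Kcnj16, Abcc3 and Rims3), and for 167 the difference did not pass. Among genes averaging 5 CPM or more in any of the 4 groups, predicted genes left out, the effect was most raised at 168 h in Adam23, Ppfibp2, Ccl5, Fmn1, Cpne7 and Tenm4. With FP at 72 h, Adam23, Ppfibp2, Fmn1 and Tenm4 averaged only 0.150, 0.361, 0.895 and 0.636 CPM, so their differences there rest on few reads. Of these, Adam23 differed by -5.33 at 72 h and -1.75 at 168 h, Ppfibp2 by -4.87 and -1.51, Fmn1 by -3.19 and -0.43, and Tenm4 by -4.08 and -1.42. In PBS libraries Adam23 averaged 6.44 CPM at 72 h and 1.95 CPM at 168 h, each scaled within its own time. The sample identifiers of the 168 h and 72 h libraries carry different dates, whose meaning is not given. Time and date cannot be told apart for a level set across these libraries, nor for a difference between effects taken against own PBS. The number of genes that differed was 711 without FP library 4 of 168 h, 606 and 572 without PBS library 2 or 3 of 72 h, and 1643 without FP library 4 of 72 h.

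Single genes can be set side by side in the same comparison at 1.5, 4, 16, 72 and 168 h, each with 3 or 4 libraries a group and its own PBS libraries. The dates in the sample identifiers differ between all these times, and an FP library at 1.5 h is dated apart from the others of its time. Time and date cannot be told apart here either. Lta differed by 2.75, 2.75, 1.08, 0.09 and -1.40 at these times, and Myb by 2.69, 3.14, 1.96, 1.37 and -1.55. Their mean levels with FP were 150 and 253 CPM at 1.5 h, and 14.6 and 11.9 CPM at 168 h, while those with PBS lay between 22.4 and 38.6 CPM for Lta and between 28.4 and 43.0 CPM for Myb at all 5 times.

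Gzmb differed by 0.56, 2.70, 4.28, 8.01 and 5.78, with mean levels in FP libraries of 6.09, 21.1, 82.4, 813 and 87.1 CPM. Klrg1 differed by -0.25, 0.09, -0.76, 1.51 and 2.29 and Il10 by -0.94, -0.41, -0.86, 1.23 and 2.31, both with their highest value at 168 h, although the difference between 72 h and 168 h did not pass for either. Il1rl1 differed by 0.61, 0.01, -0.17, 1.96 and 2.03. Il2ra, in contrast, differed by 1.79, 1.96, 1.57, 1.72 and -0.05, and Cish by 1.71, 1.92, 1.43, 1.14 and -0.19. Gzma, another granzyme gene, was higher with FP at 72 h and was not among the genes tested at 168 h.

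**Figure D5:**
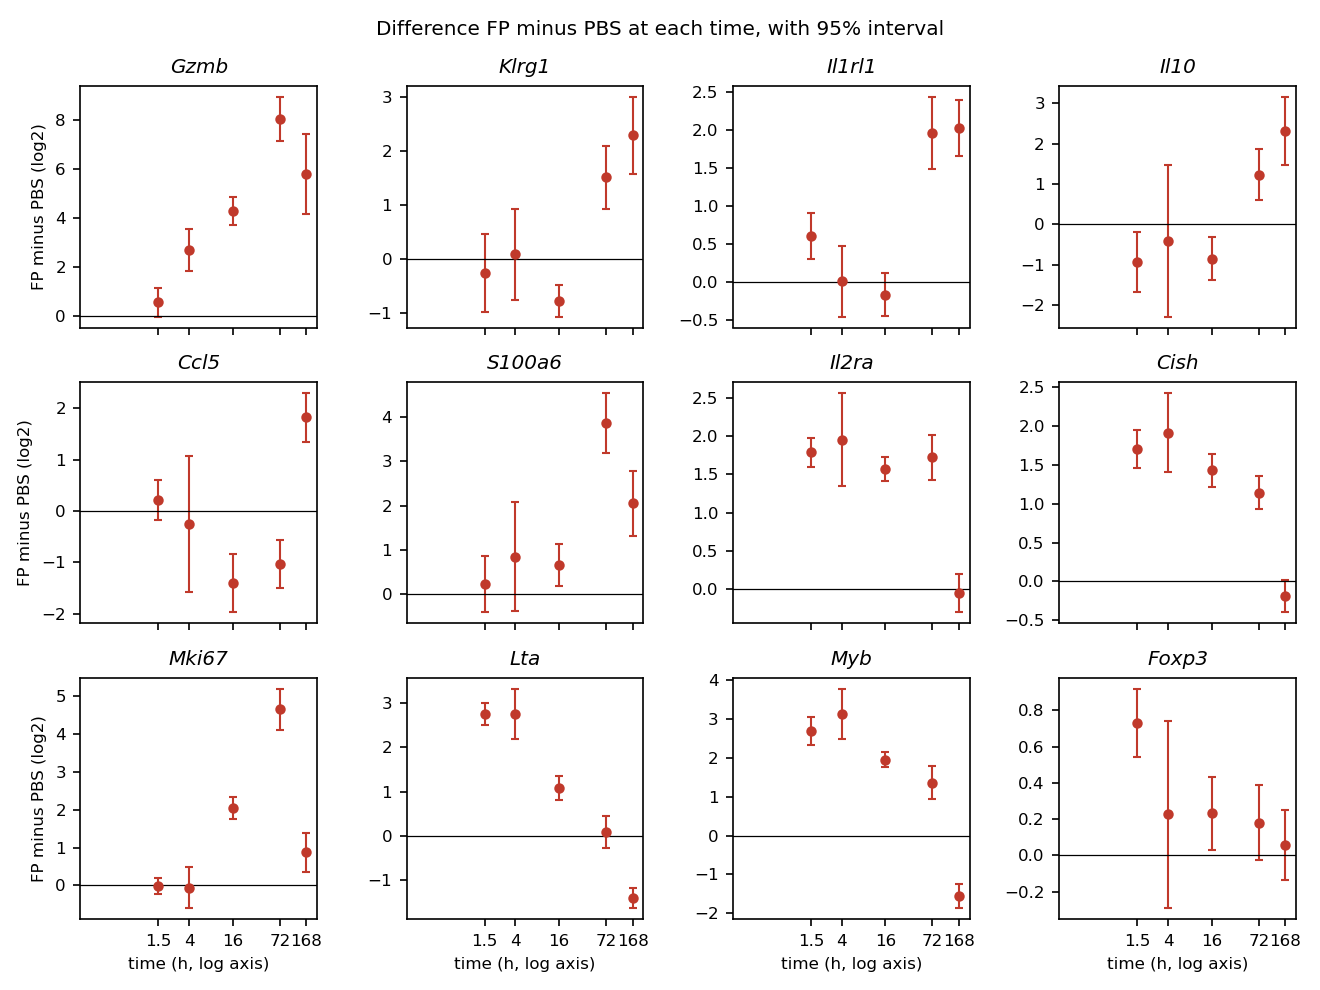
Difference FP minus PBS (log2, vertical axis) of 12 genes at 1.5, 4, 16, 72 and 168 h (log axis); points are estimates from edgeR and whiskers 95% intervals. Il2ra and Cish are near 0 at 168 h, Klrg1 and Il10 have their highest points there, and Lta and Myb are above 0 at 1.5, 4 and 16 h and below 0 at 168 h.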

How the data were processed

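RNA-seq of sorted splenic Tregs was deposited as a table of raw counts per gene for each time. Per the submitters' processing notes, the authors mapped reads to GRCm38 with STAR 2.5.0 and counted them with featureCounts 1.5.0; the series' design text names GENCODE M13 as the gene models. The deposited counts of the 168 h table had been limited to 17411 genes, each above 0.5 CPM in at least 3 libraries, so a gene not listed is not analysed here. Symbols and coordinates came from GENCODE annotation of the same build, which matched 17372 of the gene identifiers. Other differences between the gene models were not examined.

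Genes were tested with edgeR 4.0.16 (TMM scaling, quasi-likelihood F test, FP against PBS, Benjamini-Hochberg adjustment over all genes) in R 4.3.3, and DESeq2 1.42.0 was the alternative. The code was checked on simulated counts. Repeat runs at 72 h were summed, and the interaction was fitted on 17214 genes. Intervals cover the spread between libraries. The gene lists, the members and the named genes were chosen with earlier results of these data known. The rule named the 12 largest increases and decreases among called genes with a mean of 5 CPM or more in the higher group. Overlap between FP and PBS libraries excluded a gene from these, as did a predicted, RIKEN or unnamed symbol. The rule also named up to 4 called members of each list with the smallest p, 25 set genes, and the 6 largest differences from 72 h in each direction. Some genes named by the rule are not reported here. The deviations of same-numbered FP and PBS libraries from their group means had correlations of 0.48, 0.04 and 0.38. Those of libraries with unlike numbers ran from -0.58 to 0.22. These values do not settle whether the numbers are pairs. The labels do not say that they are, so the main fit left them out and a block was an alternative. Libraries were not duplicates of each other: chi-square per degree of freedom within a group was 19.2 to 77.4. Alternatives were other scaling, other filters, the adjusted p limit, a replicate block and leaving out each library.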

Additional observations from a re-analysis of the deposited data

Results flagged for a closer look

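In 9 of the 71 named genes measured at 168 h, 1 of the 4 FP libraries stood far from the others by Dixon's ratio. Chance flags about 1 in 20 groups when values are normally distributed and independent. CPM values of genes from the same libraries need not be, and the share over all genes was not counted. The 9 of 71 therefore has no background beside it. FP library 1 was the highest in 6 of them: Gzmb (195 CPM), S100a6 (167 CPM), S100a11 (58.3 CPM), Mki67 (109 CPM) and the histone genes Hist1h2af (1.50 CPM) and Hist1h2ah (1.10 CPM). FP library 3 was the highest in 3, the macrophage gene Treml4 (0.745 CPM), the haem oxygenase gene Hmox1 (9.73 CPM) and Cd74 (38.1 CPM). Without FP library 1 the differences were 5.03 for Gzmb and 1.63 for S100a6.

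In 27 named genes the effect of FP (log2) at 168 h differed from that at 72 h by the interaction test. It was lower at 168 h for Lta (-1.46), Myb (-2.89), Lrrc32 (-1.15), Il2ra (-1.75), Il2rb (-0.99), Socs2 (-1.66), Cish (-1.30), Lif (-3.92), Enah (-4.18), Icos (-1.04), Mki67 (-3.75), Birc5 (-6.004), Hist1h2af (-7.13), Hist1h3c (-6.93), Hist1h2ah (-6.76), Hist1h2ab (-6.75), Hist1h3g (-6.74) and Hmmr (-6.66). It was higher at 168 h for Ptafr (1.81), Ccl5 (2.89), Tcf7 (0.70), Il7r (1.41), Adam23 (3.62), Ppfibp2 (3.394), Fmn1 (2.78), Cpne7 (2.70) and Tenm4 (2.68).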

How the results depend on the processing

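The count of 210 changed genes (35 higher, 175 lower) was 211 with DESeq2's size factors in edgeR, 233 with library totals and 210 without a filter. It was 404 (117 higher, 287 lower) at an adjusted p below 0.05, 520 (184 higher, 336 lower) with DESeq2, and 99 (71 lower) among genes of at least 5 CPM, where fewer genes were tested. Leaving out 1 library gave 128 to 209 changed, 12 to 44 higher and 110 to 168 lower genes, and 572 to 1643 genes for the difference from 72 h (1071 in the fit of all libraries, 1061 with the first run of each 72 h library alone). With the replicate numbers as a block, 267 genes were called, 127 of them higher, and 1840 differed from 72 h. FP libraries 1 and 3 correlated best with the PBS library of their own number, and FP library 2 did not. Among the named genes the block ended the call of Clec9a (adjusted p = 0.026) and brought Mki67 past the threshold (0.0030). The sign turned in genes not called: with the replicate block, Lrrc32 had 0.057 and Hist1h3g 0.091, and with 1 library left out Lrrc32 had -0.160 to 0.079, Il2ra -0.126 to 0.0037, Hist1h2ah -0.841 to 0.0071 and Hist1h3g -1.337 to 0.468. The cause of these moves was not tested. At this depth and number of libraries, values under about 1 CPM rest on few reads.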

Other observations

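Several genes of effector Tregs that no comparison above turned on lay higher with FP without passing edgeR's test. Tigit, an inhibitory receptor gene, had 141, 105, 138 and 92.0 CPM in the FP libraries, against 39.8, 30.4 and 67.8 CPM in the PBS libraries, so its groups did not overlap, and its difference was 1.37 ± 0.25 (SE; adjusted p = 0.015). Fgl2, the gene of a secreted suppressive protein, had 94.8, 61.7, 57.6 and 65.2 CPM in the FP libraries, against 35.4, 24.1 and 41.9 CPM in the PBS libraries and 1.04 ± 0.21 (SE; adjusted p = 0.026). Nkg7, a cytotoxic granule gene, had 19.03 ± 6.63 CPM with FP and 6.79 ± 3.10 CPM with PBS (adjusted p = 0.052). Cd83, a surface protein of activated cells, went the other way, with 51.1, 55.7, 66.8 and 60.0 CPM in the FP libraries, against 107, 80.9 and 130.5 CPM in the PBS libraries and -0.86 ± 0.15 (SE; adjusted p = 0.011). These genes were picked after their values were seen.

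The mitochondrially encoded genes and the other Y- or X-linked genes examined held no called member.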
